A study of Mus musculus with 6 samples.

Results

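Platelets are shed by megakaryocytes, and the genes that build both are also read at low or moderate level in part of the haematopoietic stem cells, a state called platelet priming or platelet bias. The best known mark of that state is Vwf, which encodes von Willebrand factor, the large plasma protein that tethers platelets to injured vessel walls. Its platelet receptor is the GPIb-IX-V complex, built from the products of Gp1ba, Gp1bb, Gp9 and Gp5. The granules of platelets carry the chemokines encoded by Pf4 (platelet factor 4) and Ppbp (pro-platelet basic protein), and Treml1 encodes a receptor of the granule membrane. Nfe2 encodes the large subunit of NF-E2, the transcription factor of late megakaryocyte maturation, and Clu encodes the secreted chaperone clusterin, a transcript known to mark platelet-biased and aged stem cells.

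These 10 genes were read from the deposited table by symbol, 10 of 52183 rows, and every one of them passed the expression filter of the test (1 FPKM or more in 3 or more of the 6 libraries). FPKM, fragments for each kilobase of exon among 1000000 mapped, allow for gene length, so levels of different genes can be set side by side. The samples were haematopoietic stem cells sorted by flow cytometry from the bone marrow of 4-month-old female mice. Of the libraries, 3 carried the label Thbs1 knockout and 3 the label control, each made from 2 ng of total RNA. The sources used here give neither the strain, the deleted allele and the sorting gate nor whether each library came from its own animal. The p-values therefore reflect spread from library to library, part or all of which may be technical. Thbs1 encodes thrombospondin 1, itself a major protein of platelet granules, and the comparison asks which stem cell transcripts differ when it is deleted.

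Depth, read from the steps between FPKM values of short genes, came to between 22730000 and 30890000 reads per library. Thbs1 was read at 10.8, 8.50 and 7.68 FPKM in the knockout-labelled libraries, against 4.12, 13.8 and 2.33 FPKM in the control libraries. It was thus not lower in the knockout-labelled libraries (log2 change 0.65 ± 0.43 SE, adjusted p = 0.503 by limma). Without control library 2, the highest control, it was higher there (log2 change 1.26, adjusted p = 0.0344 by limma). With any other library left out the change was 0.19 to 0.75 and did not pass (adjusted p = 0.542 to 0.851 by limma). The directions below therefore follow the labels alone. Stem cell markers were present in all libraries: all 13 of a fixed list passed the filter, Kit being the most abundant at a mean of 152 FPKM over the 6 libraries. Of other blood cells, 3 of 10 granulocyte, 5 of 10 macrophage, 2 of 8 B cell, 2 of 7 T and NK cell and 6 of 11 red cell markers passed the filter, as did 6 of 8 endothelial markers. The largest single values were those of Lyz2 (macrophage list, mean 356 FPKM), Prtn3 (granulocyte list, 73.3 FPKM), Nkg7 (T and NK cell list, 71.6 FPKM), Car1 (red cell list, 60.7 FPKM), Eng (endothelial list, 57.2 FPKM) and Cd79b (B cell list, 26.2 FPKM). Of the same lists, Csf1r, Cd3e, Ebf1 and Cdh5 stayed under 1 FPKM in every library.

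The stretches just upstream of Pf4, Ppbp, Gp1ba and Gp9 are shown first. Pf4 and Ppbp are neighbours on chromosome 5, with 2371 bases between the annotated genes, and are the most and among the least abundant of the 10. Gp1ba and Gp9 are the lowest and the highest of the receptor complex. Each run holds the 250 bases before the RefSeq start (GRCm38.p6), 5′ to 3′ in the direction of the gene. Capitals mark letters recognised by the megakaryocyte regulators GATA1 and FLI1: AGATAA, also AGATAG, also TGATAA, also TGATAG for GATA factors, and CGGAAG, also AGGAAG, also CGGAAA, also AGGAAA for ETS factors, searched on both strands. The windows are chr5:90772185-90772434 (+ strand), chr5:90768268-90768517 (+ strand), chr11:70638872-70639121 (+ strand) and chr6:87777820-87778069 (+ strand).
Pf4: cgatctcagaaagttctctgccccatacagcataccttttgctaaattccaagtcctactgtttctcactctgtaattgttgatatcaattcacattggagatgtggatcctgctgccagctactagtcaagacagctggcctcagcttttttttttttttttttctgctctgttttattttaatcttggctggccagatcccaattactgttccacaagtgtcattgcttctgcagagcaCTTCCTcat
Ppbp: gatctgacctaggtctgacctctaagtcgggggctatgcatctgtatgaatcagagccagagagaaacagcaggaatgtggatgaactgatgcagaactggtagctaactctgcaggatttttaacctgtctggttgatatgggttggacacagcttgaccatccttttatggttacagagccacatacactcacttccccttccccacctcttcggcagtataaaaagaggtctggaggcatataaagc
Gp1ba: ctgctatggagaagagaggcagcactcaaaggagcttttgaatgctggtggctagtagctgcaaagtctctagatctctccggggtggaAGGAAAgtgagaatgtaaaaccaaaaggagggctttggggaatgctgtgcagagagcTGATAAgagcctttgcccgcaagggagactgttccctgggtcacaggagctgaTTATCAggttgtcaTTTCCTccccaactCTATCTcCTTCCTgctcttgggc
Gp9: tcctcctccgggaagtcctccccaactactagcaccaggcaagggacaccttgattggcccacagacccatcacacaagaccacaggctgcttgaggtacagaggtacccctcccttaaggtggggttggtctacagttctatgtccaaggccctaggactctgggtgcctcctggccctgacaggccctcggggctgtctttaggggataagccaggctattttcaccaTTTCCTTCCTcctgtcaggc

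The Gp1ba window held 3 GATA and 3 ETS matches, the last of each starting 23 and 16 bases before the gene. In the Gp9 window there were 2 ETS matches, starting 20 and 16 bases before the gene and overlapping each other, and 0 GATA matches. Pf4 had 1 ETS match, starting 9 bases before the gene, and Ppbp had none of either kind. Of the other genes with an entry, Gp5 held 3 GATA matches and 1 ETS match, Gp1bb 1 of each, and Treml1 1 ETS match. All 250 bases of the Gp1bb window lie in annotated exons, against 0 bases in each of the other windows. Entries existed for 7 of the 10 genes, those for Vwf, Clu and Nfe2 not being among them. Over all 32851 windows of this length, 26.5% held a GATA match and 57.2% an ETS match, so these are common letters. The core TGAGTCA of the NF-E2 site was found in 0 of the 7 windows and in 4.46% of all. A match is a description of the letters, and an absent match says nothing about the factor.

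The 10 genes spanned a 38.8-fold range of mean level in the stem cells. Pf4 and Nfe2 stood at the top, each among the most abundant transcripts of the library: by FPKM Pf4 held rank 78 to 268 of 52183 rows, depending on the library, and Nfe2 rank 139 to 191. Gp9 and Gp5 formed a middle tier. Clu, Vwf, Treml1, Ppbp, Gp1bb and Gp1ba lay lower, with library values between 4.95 and 18.8 FPKM. The range of Nfe2 over the 6 libraries lay wholly above that of Gp9, and the range of Gp5 wholly above that of Clu. Between all other neighbours in the order the ranges overlapped. Over both groups together, Pf4 exceeded Nfe2 in 3 of the 6 libraries, Clu exceeded Vwf in 4, Vwf exceeded Treml1 in 4, Treml1 exceeded Ppbp in 3 and Ppbp exceeded Gp1bb in 4. Some of these orders differed between the groups: Pf4 lay below Nfe2 in all 3 knockout-labelled libraries and above it in all 3 control libraries, and Clu lay above Vwf in all 3 knockout-labelled libraries and in 1 of 3 control libraries.

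**Figure D1:**
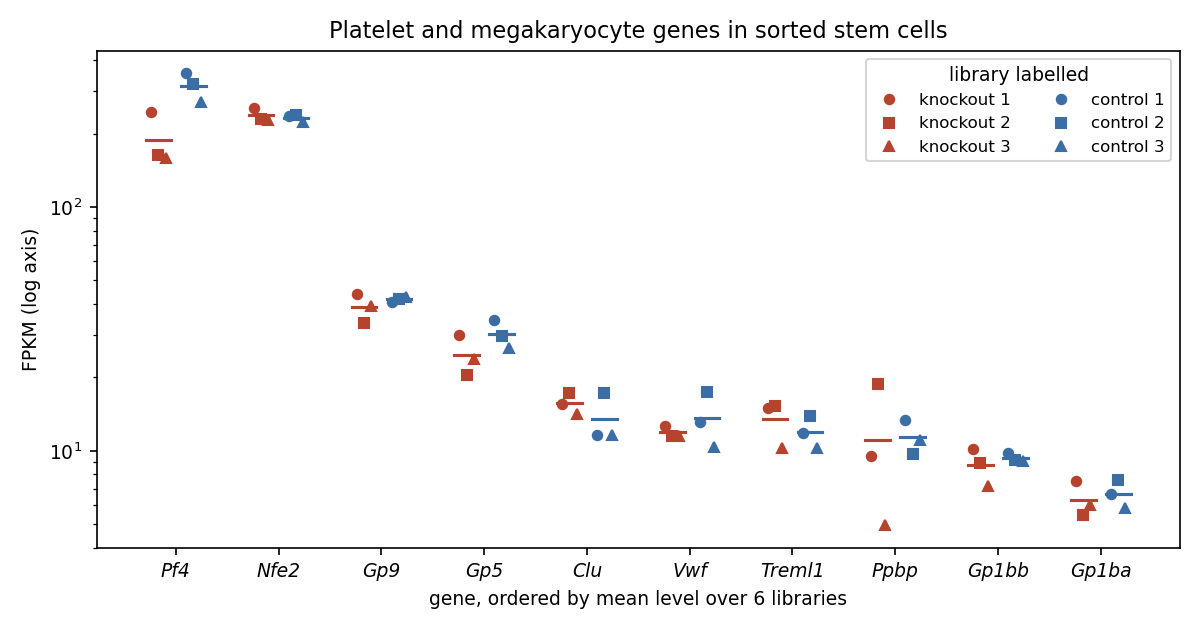
FPKM on a log axis of the 10 genes in each library, ordered by mean level over the 6 libraries; symbols are single libraries and short bars are means of the 3 knockout-labelled libraries (red, left) and the 3 control libraries (blue, right). For Pf4 all 3 knockout-labelled libraries (159 to 245 FPKM) lie below all 3 control libraries (269.8 to 354 FPKM), whereas the groups overlap for every other gene.

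Between the groups, Pf4 differed most and no gene of the 10 passed the test. By limma on log2(FPKM + 1), 0 of 10 had an adjusted p below 0.05 and 1, Pf4, had an unadjusted p below 0.05. Of all 12555 tested genes 1.56% passed at an adjusted p below 0.05 (0.566% higher and 0.996% lower), and 16.4% had an unadjusted p below 0.05. The fitted changes were below 0 for 7 of the 10 genes, against 46.6% of all tested genes, and their median was -0.11 on the log2 scale, against 0.01 over all tested genes. Those directions are not firm: rescaled so that each library sums to 1000000 (TPM), which moves the median of all tested genes to 0.19, the fitted changes of Vwf, Gp1ba, Gp1bb and Gp9 lie above 0. By FPKM as deposited, the groups did not overlap for 1 of the 10 genes, Pf4, against 22.8% of all tested genes. Under TPM the groups overlapped for Pf4 and lay apart for Nfe2, which was then higher in the knockout-labelled libraries. These are bulk samples, in which fewer cells of a kind and less RNA per cell cannot be told apart.

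**Figure D2:**
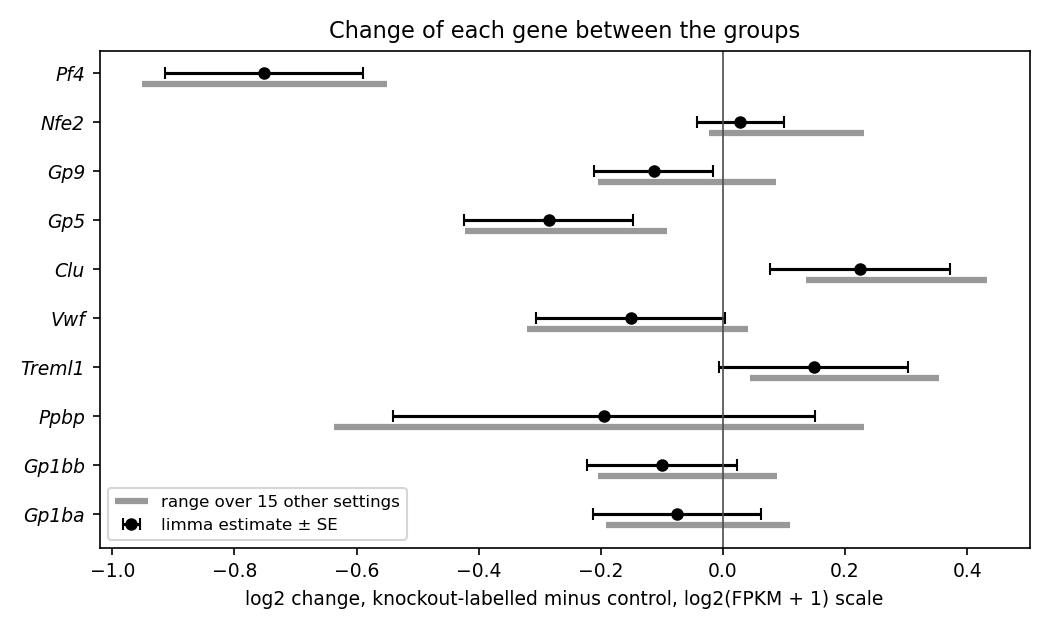
Log2 change of each gene, knockout-labelled libraries minus control libraries, on the log2(FPKM + 1) scale; points are limma estimates with their standard errors, and grey bars span the estimates under 15 other processing settings. Pf4 lies at -0.75 ± 0.16 with all 15 settings below 0, and the bars of Nfe2, Gp9, Vwf, Ppbp, Gp1bb and Gp1ba cross 0.

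Of the granule chemokines, Pf4 (ENSMUSG00000029373, chr5:90772435-90773383, + strand) was lower on average in the knockout-labelled libraries without passing the test. Its level was 245, 164 and 159 FPKM in the knockout-labelled libraries, against 354, 321 and 269.8 FPKM in the control libraries. By FPKM the groups did not overlap, and libraries 2 and 3 labelled knockout were nearly alike while library 1 stood closer to the controls. That separation depended on the scale. Knockout library 1 held 245 of 339652 summed FPKM, and control library 3 held 269.8 of 408725, a smaller share. As shares of the library total, as under TPM, the groups thus overlapped. The means were 189 ± 48.4 and 315 ± 42.3 FPKM (SD, n = 3 each), a ratio of 0.601, and the log2 change was -0.75 ± 0.16 SE (adjusted p = 0.0594 by limma; two-sided p = 0.1 in an exact permutation test, the smallest that 3 against 3 allows). Coordinates here and below are those of GRCm38. Between 2953 and 6592 reads lay behind each value. The call depended on the setting: Pf4 passed in 4 of 15 other settings, among them the fit without knockout library 1 (adjusted p = 0.00849), and its adjusted p ranged up to 0.323.

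By FPKM as deposited, some marker sums, as Pf4 itself, were lower in every knockout-labelled library than in every control library. Their part in the difference of Pf4 was not tested. The FPKM of all rows also summed to less in the knockout-labelled libraries, 329434 to 339652, against 373903 to 408725 in the control libraries. The sums and levels below are FPKM as deposited. Taken as shares of those totals, the stem cell and B cell sums overlapped between the groups. The T and NK cell sum stayed lower in every knockout-labelled library. As shares, the endothelial and mature megakaryocyte sums were higher in every knockout-labelled library. Those of the remaining lists overlapped. The summed FPKM of the 13 stem cell markers lay between 454 and 478 in the knockout-labelled libraries and between 489.9 and 548 in the control libraries. Its members went both ways. Ly6a, which encodes Sca-1, was the only one called (means 76.9 against 115 FPKM, adjusted p = 0.0286 by limma). Slamf1 (6.32 against 8.34 FPKM), Hlf (63.5 against 73.05), Cd34 (50.2 against 55.8) and Flt3 (6.80 against 8.96) were also lower without overlap. Procr (59.3 against 45.4 FPKM) and Fgd5 (11.1 against 8.24 FPKM) were higher without overlap. Apart from Ly6a none of these passed. The groups did not overlap for 7 of the 13, against 22.8% of all tested genes. The sum of 7 T and NK cell markers lay between 52.5 and 63.8, against 75.1 to 101 FPKM, almost all of it Nkg7. That of 8 B cell markers lay between 24.3 and 27.8, against 29.3 to 31.1 FPKM, mainly Cd79b. Sums of 10 granulocyte markers (67.6 to 73.2 and 71.5 to 98.0 FPKM) and of 10 macrophage markers (344 to 373 and 366 to 406 FPKM) overlapped between the groups, and so did those of red cell (60.9 to 129 and 95.7 to 116 FPKM), endothelial (129 to 148 and 119.7 to 142 FPKM), mast cell and basophil (5.80 to 10.7 and 6.56 to 10.2 FPKM) and stromal markers (1.81 to 2.22 and 1.16 to 2.16 FPKM). Car1 was the largest single part of the red cell sum, from 20.5 of 60.9 FPKM in knockout library 2 to 93.1 of 129 FPKM in knockout library 1. Within that list the beta-globin gene Hbb-bt fell to between 3.54 and 4.43 FPKM, against 11.95 to 19.98 FPKM in the control libraries (log2 change -1.61 ± 0.18 SE, adjusted p = 0.00247 by limma). Its reads may be divided with the near-identical Hbb-bs, which overlapped between the groups. Markers of mature megakaryocytes and platelets other than the 10 genes, 12 in number, summed to between 287 and 352 FPKM in the knockout-labelled libraries and between 295 and 323 FPKM in the control libraries, ranges that overlapped. Nrgn, at a mean of 195 FPKM, made up most of that sum.

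Ppbp (ENSMUSG00000029372, chr5:90768518-90770063, + strand), which lies beside Pf4, did not separate the groups. It was read at 9.50, 18.8 and 4.95 FPKM in the knockout-labelled libraries, against 13.3, 9.72 and 11.1 FPKM in the control libraries. Both its highest and its lowest value were among the knockout-labelled libraries, which enclosed the controls (log2 change -0.19 ± 0.35 SE, adjusted p = 0.836 by limma). Between 138 and 531 reads lay behind these values, and its spread within the groups was larger than that of 98.2% of all tested genes. Without knockout library 3 the fitted change was 0.23, so 1 library decided its sign. The next genes of this chemokine cluster, Cxcl5 and Cxcl3, reached at most 0.30 and 0.31 FPKM in any library. Pf4 was between 8.70 and 32.1 times the level of Ppbp in the knockout-labelled libraries and between 24.4 and 33.03 times in the control libraries, the lowest ratio being that of knockout library 2.

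The receptor for von Willebrand factor was present in full at the transcript level, in unequal amounts. Gp9 (ENSMUSG00000030054, chr6:87778072-87779768, + strand) encodes a small leucine-rich subunit that the complex needs to reach the cell surface. It was read at 43.9, 33.3 and 39.3 FPKM in the knockout-labelled libraries, against 40.8, 41.9 and 42.8 FPKM in the control libraries. The control values lay within the range of the knockout-labelled libraries (log2 change -0.11 ± 0.10 SE, adjusted p = 0.613 by limma). Gp5 (ENSMUSG00000047953, chr16:30307685-30310779, - strand) encodes the subunit cleaved by thrombin. It was read at 29.7, 20.4 and 23.9 FPKM in the knockout-labelled libraries, against 34.6, 29.5 and 26.4 FPKM in the control libraries. After Pf4 it had the next smallest p of the 10, but knockout library 1 overlapped the controls and the test was not passed (log2 change -0.29 ± 0.14 SE, adjusted p = 0.349 by limma). Its fitted change was below 0 under all 15 other settings.

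Gp1ba (ENSMUSG00000050675, chr11:70639122-70642036, + strand), the subunit that binds von Willebrand factor itself, was the lowest of the 10. Its level was 7.52, 5.43 and 5.98 FPKM in the knockout-labelled libraries, against 6.65, 7.57 and 5.82 FPKM in the control libraries (log2 change -0.08 ± 0.14 SE, adjusted p = 0.840 by limma), the groups lying over each other. Gp1bb (ENSMUSG00000050761, chr16:18620317-18622403, - strand) encodes its disulphide-linked partner. It was read at 10.2, 8.89 and 7.14 FPKM in the knockout-labelled libraries and at 9.83, 9.16 and 9.06 FPKM in the control libraries (-0.10 ± 0.12 SE, adjusted p = 0.746 by limma), with the controls again inside the range of the knockout-labelled libraries. The level of Gp1bb is uncertain: 91.1% of its 2087 exonic bases are shared on the same strand with the septin gene Sept5, which was read at 0.68 to 1.24 FPKM, and the sources used here do not say how shared reads were counted. Another gene on the same strand, Gm49601, shares 41.5% of these bases and has no FPKM values here. For the other 9 genes no exon of another gene overlapped.

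Within the complex, Gp9 stood at 5.84, 6.14 and 6.57 times Gp1ba in the knockout-labelled libraries and at 6.13, 5.54 and 7.35 times in the control libraries. Gp5 stood at 3.95, 3.76 and 3.997 times Gp1ba in the knockout-labelled libraries, against 5.20, 3.89 and 4.53 times in the control libraries. Neither ratio separated the groups. The 4 subunits together came to 91.3, 68.1 and 76.3 FPKM in the knockout-labelled libraries and to 91.8, 88.1 and 84.1 FPKM in the control libraries, with knockout library 1 at the level of the controls.

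The ligand of that receptor, encoded by Vwf (ENSMUSG00000001930, chr6:125546774-125686679, + strand), did not separate the groups. Vwf was read at 12.7, 11.5 and 11.5 FPKM in the knockout-labelled libraries, against 13.1, 17.4 and 10.3 FPKM in the control libraries. Control library 2 was the highest of all 6, as it was for Thbs1 among the controls, and the range of the controls enclosed the knockout-labelled libraries (log2 change -0.15 ± 0.15 SE, adjusted p = 0.682 by limma). Without control library 2 the fitted change of Vwf was 0.03. Clu (ENSMUSG00000022037, chr14:65968483-65981547, + strand) is the other transcript of platelet-biased stem cells. It was read at 15.6, 17.3 and 14.1 FPKM in the knockout-labelled libraries, against 11.6, 17.2 and 11.6 FPKM in the control libraries. Here too control library 2 stood apart from the other controls and overlapped the knockout-labelled libraries (log2 change 0.22 ± 0.15 SE, adjusted p = 0.492 by limma).

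Treml1 (ENSMUSG00000023993, chr17:48359916-48367176, + strand), the granule receptor, was read at 14.96, 15.2 and 10.3 FPKM in the knockout-labelled libraries, against 11.8, 13.8 and 10.3 FPKM in the control libraries, and its lowest value was the same in both groups (log2 change 0.15 ± 0.15 SE, adjusted p = 0.686 by limma). Nfe2 (ENSMUSG00000058794, chr15:103248212-103258403, - strand) was the steadiest of the 10. It was read at 255, 230.45 and 228 FPKM in the knockout-labelled libraries, against 237, 238 and 224 FPKM in the control libraries, a log2 change of 0.03 ± 0.07 SE (adjusted p = 0.892 by limma). Only 11.9% of tested genes had a smaller spread within the groups, whereas the other 9 genes all had a spread above the median of tested genes. Its highest value over its lowest was 1.14, against 2.22 for Pf4 and 3.80 for Ppbp.

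A ratio of 2 genes within a library does not depend on how libraries are scaled. Pf4 divided by Nfe2 was 0.697 to 0.960 in the knockout-labelled libraries, against 1.20 to 1.49 in the control libraries, so the pair changed places: Nfe2 was the higher of the 2 in all 3 knockout-labelled libraries and Pf4 in all 3 control libraries. Pf4 divided by Gp5 was 6.66 to 8.24, against 10.2 to 10.9, and divided by Gp9 it was 4.05 to 5.58, against 6.31 to 8.68. In all, 7 of the 9 ratios of Pf4 to another of the genes separated the groups, Vwf and Ppbp being the exceptions. All 9 share the same Pf4 values, which as FPKM already did not overlap by themselves, and so are not separate results. The share over ratios of Pf4 to all tested genes was not computed. Of the 36 ratios without Pf4, 2 separated the groups.

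**Figure D3:**
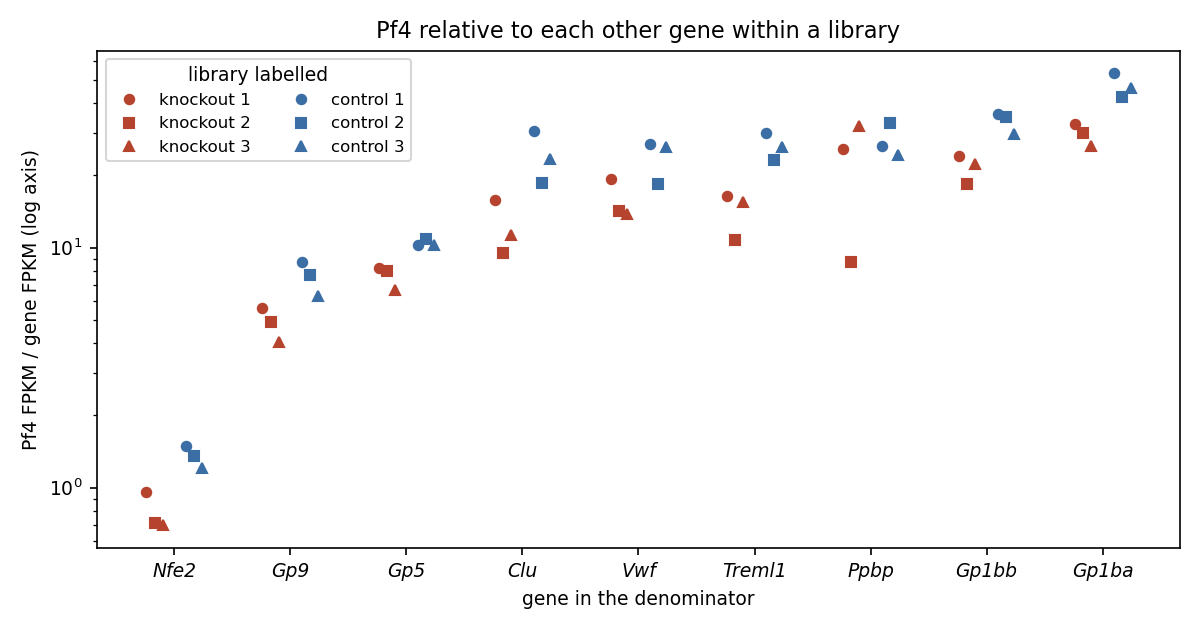
Pf4 FPKM divided by the FPKM of each of the other 9 genes in the same library, on a log axis, for the 3 knockout-labelled libraries (red, left) and the 3 control libraries (blue, right). The groups lie apart for 7 genes, as for Nfe2 (0.697 to 0.960 against 1.20 to 1.49), and overlap for Vwf and Ppbp.

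Other genes of the megakaryocyte and platelet programme were described through 4 lists with 67 genes, of which 52 passed the filter. Tbxa2r and Selp fell, 0 rose and 50 did not pass the limma test. That is 3.85% called, against 1.56% of all tested genes, and 23.1% had an unadjusted p below 0.05, against 16.4%. The groups did not overlap for 25.0% of the 52, against 22.8% of all tested genes. The median log2 change of the 52 was 0.0034, against 0.01 over all tested genes.

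Among 16 tested receptors and adhesion molecules, Tbxa2r, which encodes the thromboxane A2 receptor that amplifies platelet activation, fell to 11.8 to 13.2 FPKM in the knockout-labelled libraries, against 19.3 to 20.8 FPKM in the control libraries. The groups lay well apart (log2 change -0.62 ± 0.08 SE, adjusted p = 0.00715 by limma), and the call held with each library left out in turn (adjusted p up to 0.0407), but not without the expression filter (0.0555). Selp, which encodes P-selectin, an adhesion molecule stored in platelet granules, fell to 10.1, 9.05 and 7.17 FPKM, against 14.6, 17.4 and 15.7 FPKM in the control libraries (log2 change -0.80 ± 0.12 SE, adjusted p = 0.0153 by limma). That call was lost without knockout library 2, control library 2 or control library 3 (adjusted p = 0.0512, 0.0620 and 0.0523), without the expression filter (0.150) and without the mean-variance trend (0.0571). Exons of Selp, Etv6, Timp3, P2ry1, Actn1, Thbs1, Mafk, Mpig6b and F13a1 overlap genes on the other strand. Libraries without strand marks cannot tell the reads of such genes apart. Mafg and Clec1b share 2.21% and 3.61% of their exonic bases with Sirt7 and Clec9a on the same strand. Sirt7 was read at 18.2 to 20.25 FPKM. Itgb3, the beta subunit of the fibrinogen receptor, stood at 27.9, 19.0 and 18.6 FPKM in the knockout-labelled libraries, against 14.7, 14.8 and 11.6 FPKM in the control libraries. Its groups did not overlap, and it did not pass the test (0.62 ± 0.15 SE, adjusted p = 0.0934 by limma), though it did with a filter at a mean of 5 FPKM (0.0458) and under TPM (0.0200). Itga2b, the alpha subunit of the same receptor, stood at 51.5, 44.3 and 44.2 FPKM, against 56.6, 59.4 and 41.7 FPKM in the control libraries (adjusted p = 0.595 by limma). P2ry1, an ADP receptor, had a log2 change of 0.42 ± 0.12 (adjusted p = 0.139), and P2rx1, an ATP-gated channel, one of -0.36 ± 0.12 (adjusted p = 0.182).

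Of 11 tested regulators of megakaryocyte transcription limma called 0, and 1, the ETS family repressor Etv6, fell below an unadjusted p of 0.05 (log2 change -0.19 ± 0.07 SE, adjusted p = 0.234). Gata1, the master factor of the red cell and megakaryocyte lineages, stood at 32.5, 30.6 and 27.7 FPKM in the knockout-labelled libraries, against 25.4, 29.9 and 19.9 FPKM in the control libraries (0.28 ± 0.13 SE, adjusted p = 0.338 by limma). Gata2, the most abundant of the list at a mean of 97.2 FPKM over all libraries, had a log2 change of 0.16 ± 0.10 (adjusted p = 0.463). Mafg and Mafk encode the small partners with which the product of Nfe2 binds DNA. They stood at 14.0 to 15.3 and 13.1 to 16.7 FPKM in the knockout-labelled libraries, against 16.0 to 16.4 and 13.1 to 14.3 FPKM in the control libraries, well under the level of Nfe2 itself in either group.

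Secreted and granule proteins gave 0 called genes among 8 tested, with 3 at an unadjusted p below 0.05. Tgfb1, a cytokine that platelets store in quantity, stood at 44.0, 43.6 and 41.6 FPKM in the knockout-labelled libraries, against 57.5, 50.3 and 53.3 FPKM in the control libraries, without overlap (log2 change -0.31 ± 0.07 SE, adjusted p = 0.0800 by limma). It passed under quantile normalization (adjusted p = 0.0489). Srgn, which encodes the granule proteoglycan serglycin that binds platelet factor 4, stood at 384, 409 and 374 FPKM, against 410.4, 482 and 485 FPKM in the control libraries (-0.23 ± 0.09 SE, adjusted p = 0.212 by limma), so its lowest control value lay just above the knockout-labelled libraries. Timp3, an inhibitor of metalloproteinases, had a log2 change of 0.35 ± 0.14 (adjusted p = 0.251). Among 17 tested genes of the cytoskeleton, granule building and prostanoid synthesis, limma called 0 and 1 lay below an unadjusted p of 0.05. This was Actn1, which encodes an actin crosslinker (-0.47 ± 0.14 SE, adjusted p = 0.137). Vps33b, needed for granule building, and Myh9, the heavy chain of nonmuscle myosin, had log2 changes of 0.20 ± 0.09 and -0.18 ± 0.09 (adjusted p = 0.308 and 0.363).

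**Figure D4:**
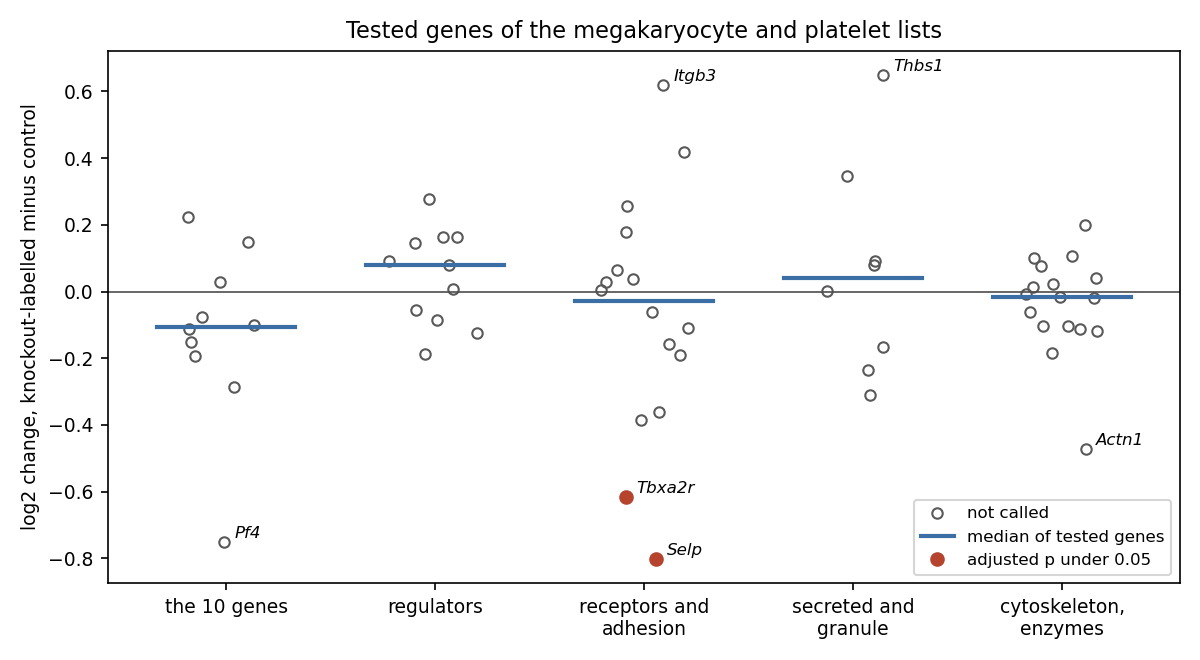
Log2 change of every tested gene of the 10 platelet genes and of the 4 lists of other megakaryocyte and platelet genes, knockout-labelled libraries minus control libraries, with horizontal bars at the median of each list; filled points passed limma at an adjusted p below 0.05 and genes beyond 0.45 in either direction are named. Tbxa2r (-0.62) and Selp (-0.80) are the filled points, and Pf4 (-0.75) lies between them without passing.

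Genes typical of mature megakaryocytes and platelets were read at contrasting levels. Gp6, the platelet collagen receptor, reached at most 0.07 FPKM in any library. Mpig6b, an inhibitory receptor of megakaryocytes, reached at most 0.24 FPKM, and Clec1b, the podoplanin receptor, at most 0.62 FPKM. Tubb1, the beta-tubulin of the platelet rim, stood at 3.52, 2.46 and 1.63 FPKM in the knockout-labelled libraries and at 2.27, 2.71 and 1.72 FPKM in the control libraries (adjusted p = 0.860 by limma), so the groups overlapped. F13a1, which encodes the A subunit of clotting factor XIII, reached at most 0.10 FPKM. Of the 12 mature markers, 6 passed the filter, and the other 5 beside Tubb1 were well above these low values: Nrgn had a mean of 195 FPKM over the 6 libraries, Itga2b 49.6, P2rx1 37.1, Itgb3 17.8 and F2rl2 9.18 FPKM.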

How the data were processed

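RNA sequencing was read from 6 libraries of sorted stem cells. The authors deposited FPKM values with 2 decimals. FastQC 0.11.5, STAR, edgeR and the builds GRCm38 and mm10 appear in the submitters' processing notes; the sources used here do not give their roles, the annotation or the counting rule. Library preparation used SMART-Seq v4, per the labels' protocols, which does not mark strand. Exon lengths and positions came from GENCODE release M21 (GRCm38), in which all 52183 identifiers matched. Read numbers behind a value are FPKM multiplied by exon length and depth. The depth chosen made between 99.6% and 99.8% of low values of genes with at most 400 bases of exon whole within 0.1 read. Such numbers convey counting error only.

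Because FPKM are not counts, genes reaching 1 FPKM in 3 or more libraries were tested on log2(FPKM + 1), which understates changes of low genes, with limma 3.58.1 in R 4.3.3 (trend, two-sided). The Benjamini-Hochberg adjustment covered all 12555 tested genes, with a threshold of 0.05. The script was tested on simulated data. Exact permutation tests used scipy 1.17.1. The 10 genes and all lists were chosen with earlier results of these data known. All 10 genes are described. From each list of other megakaryocyte genes, the text names called genes and the 3 others with the smallest p. Itga2b, Mafg, Mafk, Tubb1, Gp6, Mpig6b, Clec1b, F13a1, Cxcl3, Cxcl5, F2rl2 and Nrgn were chosen after their values were seen. So were Ly6a, Procr, Fgd5, Slamf1, Hlf, Cd34, Flt3, Hbb-bt and the low markers of other cells. Listed symbols without a row, Mkl1 and Ahsp, were not analysed here. Upstream sequences are from RefSeq. Alternatives were other pseudocounts, filters, scalings, variance settings, the replicate number as a block, and each library left out.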

Additional observations from a re-analysis of the deposited data

How the results depend on the processing

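Of the 10 genes, none besides Pf4 passed under any of 15 other settings. Pf4 was the single gene called, in 1 of 10, with a mean of at least 5 FPKM as the filter (log2 change -0.75, adjusted p = 0.0225), with array weights (-0.87, adjusted p = 0.0149) and with the replicate number as a block (-0.75, adjusted p = 0.0263). With each library left out in turn 0 to 1 were called, and its change ranged from -0.95 to -0.64. Deviations of same-numbered libraries from their group means correlated at -0.11, 0.04 and -0.08, and those of differently numbered libraries at -0.1 to 0.19. With 3 libraries per group this cannot decide whether same-numbered libraries were paired. The block gave 27 higher and 54 lower genes over the whole table, against 71 and 125 without it.

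Over all tested genes, 8 were higher and 16 lower without a filter, when 35246 genes entered, and 24 and 65 without the trend. A mean of at least 5 FPKM and array weights each gave 112 higher. TPM gave 2016 higher and 128 lower. With each library left out, 16 to 38 were higher and 43 to 77 lower. Of the other megakaryocyte genes, 1 was higher with the filter at a mean of 5 FPKM (Itgb3), 7 under TPM, and 0 to 1 without single libraries (Thbs1 without control library 2), against 0. There were 0 lower without a filter, 1 without the trend, 3 under quantile normalization (Tgfb1 besides Selp and Tbxa2r) and 1 to 3 without single libraries, against 2. Beyond the number of genes or libraries, the cause was not tested. Under TPM all 20 group levels moved by at least 1 SD, but TPM is a different unit. It brings every library to a larger, common sum, so that move could not show whether the levels depend on the processing. At least 138 reads lay behind each value of the 10 genes, but reads amplified from 2 ng of RNA are not independent molecules, and counting error was not set against the spread between libraries.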

Other observations

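Of the 36 ratios between the genes other than Pf4, 2 did not overlap between the groups. They were picked out after all ratios had been computed. The share over ratios of other tested genes was not computed. The 22.8% of tested genes without overlap is a share of levels, which depend on library scaling, and is no measure for ratios. Many of the 36 also share a gene and so are not separate results. Clu divided by Vwf was 1.23 to 1.499 in the knockout-labelled libraries and 0.883 to 1.12 in the control libraries. Nfe2 divided by Gp5 was 8.58 to 11.3 in the knockout-labelled libraries, against 6.87 to 8.49 in the control libraries.

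Within the fibrinogen receptor the 2 subunits lay on opposite sides of 0: the log2 change was 0.62 ± 0.15 for Itgb3 and -0.16 ± 0.13 for Itga2b, neither passing the limma test.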
